A study of Mus musculus with 36 samples.

Results

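Lungs of mice with type 1 diabetes (T1D) were compared with lungs of mice on a normal diet (ND), both after breathing filtered air. The comparison uses 6 of the 36 RNA sequencing libraries of the study and 6 of its 18 lung libraries: 3 from T1D mice (T1DC) and 3 from ND mice (NDC), chosen by their labels for tissue, metabolic state and air. All mice were wild-type C57BL/6J males that arrived at 6 weeks of age. After 2 weeks of acclimation the T1D mice were injected with streptozotocin, a glucose analogue that alkylates DNA and destroys the insulin-secreting beta cells of the pancreas, on 5 consecutive days, and they ate the same purified AIN93G diet as the ND mice. No vehicle injection of the ND mice is described, so effects of the drug and of the diabetes cannot be told apart here. Exposure began at 14 weeks of age and lasted 4 weeks, in chambers whose inlet filters removed particles. The remaining lung groups were T1D and ND mice in ambient particulate matter (T1DE and NDE) and obese mice on a high-fat diet in either air (DIOC and DIOE), and the liver was sequenced in the same 6 groups. Nothing in the labels says which mouse gave which library beyond a replicate number, so p-values measure a spread between libraries. Unless stated otherwise, that spread was estimated within the groups of all 18 lung libraries, or of all 18 liver libraries for liver results. Libraries are named by group and replicate, so T1DC3 is the third library of T1DC.

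Several of the genes described below belong to the circadian clock, a feedback loop that runs in nearly every cell. In that loop Arntl (BMAL1) pairs with Clock or Npas2 to switch on target genes through E-box sequences, the targets include the Per and Cry repressors that shut the pair off, and the nuclear receptors Nr1d1 and Nr1d2 (REV-ERB alpha and beta) are also targets and repress Arntl in turn. A further set belongs to the p53 pathway, in which DNA damage or other stress stabilises the transcription factor p53 and its targets stop the cell cycle or start apoptosis. The lung also depends on elastic fibres, in which tropoelastin is laid on a fibrillin scaffold and crosslinked, for its recoil.

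All values are FPKM, a count of sequenced fragments scaled to transcript length and library size, as deposited. The 6 libraries were similar in the number of genes above 0 FPKM, 16806 to 16940 in T1DC and 16702 to 16972 in NDC. Pearson's correlation of log2 values was 0.975 to 0.988 between T1DC libraries and 0.962 to 0.976 between NDC libraries, computed across genes, which are not independent replicates. Lung identity was plain in both groups: the summed level of 14 alveolar type 2 cell markers was 17350 to 21070 FPKM in T1DC and 19210 to 26820 FPKM in NDC. Genes of other tissues were also present and unequal. Krt13, a keratin of squamous epithelium, stood at 799, 413 and 339 FPKM in T1DC and at 0.23, 288 and 1.71 FPKM in NDC. Acta1, skeletal muscle actin, stood at 312, 438 and 140 FPKM in T1DC and at 0.38, 130.1 and 23.4 FPKM in NDC. NDC2 therefore carried both tissues at a level near that of the diabetic lungs, while NDC1 and NDC3 carried little. All 15 tested skeletal muscle genes and all 15 tested squamous genes had a higher mean in T1DC, with medians of 2.52 and 1.90 on the log2 scale. Alb, the albumin of hepatocytes, stood at 31.7, 2.22 and 2.64 FPKM in T1DC and at 65.0, 2.61 and 59.5 FPKM in NDC. Ucp1, the uncoupling protein that defines brown fat, was at 219 FPKM in NDC2 and at most 0.17 FPKM in T1DC. The third diabetic library was low in lymphocyte genes, with T cell markers summing to 64.0 FPKM in T1DC3 against 193.7 and 167.7 in the other T1DC libraries. The part of these tissues in the results below was not tested except where a value without a library, or with a tissue score as a covariate, is given.

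A gene entered the test when 3 or more lung libraries gave it 1 FPKM or above. Of the 13973 such genes, 15 passed an adjusted p of 0.05 with a fold above 1.5 in limma, which is 0.107% of those tested. Of these, 11 were higher in T1DC (0.0787%) and 4 were lower (0.0286%). The genes that fell were Dbp, Nr1d1, Nr1d2 and Scn7a. Those that rose were the clock genes Arntl and Cry1, the p53 targets Cdkn1a and Eda2r, the matrix genes Eln, Ecm1, Adamts15 and Adamtsl4, and Adm, Dtx4 and Fbxo2. At an unadjusted p of 0.05 with the same fold, 538 genes differed (3.85%), 246 of them higher (1.76%) and 292 lower (2.09%). The 3 T1DC libraries all lay above the 3 NDC libraries in 9.13% of tested genes and all below in 11.5%, 20.6% in all. The median log2 fold change over all tested genes was -0.04. A median near 0 does not mean that few genes differed: 12.5% had an unadjusted p under 0.05, and 59.2% had a lower mean in T1DC. The count depends on single libraries: without NDC2, and likewise without NDC3, Dbp alone kept its call, without T1DC1 or without T1DC3 the count was 3, and without T1DC2 it was 26. When limma was fitted on the 6 compared libraries alone, or with 3 tissue scores (muscle and squamous, brown fat, and hepatocyte genes) as covariates, 0 genes were called, with 1710 and 973 genes under an unadjusted p of 0.05. All 15 genes kept their direction in each of these settings.

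**Figure D1:**
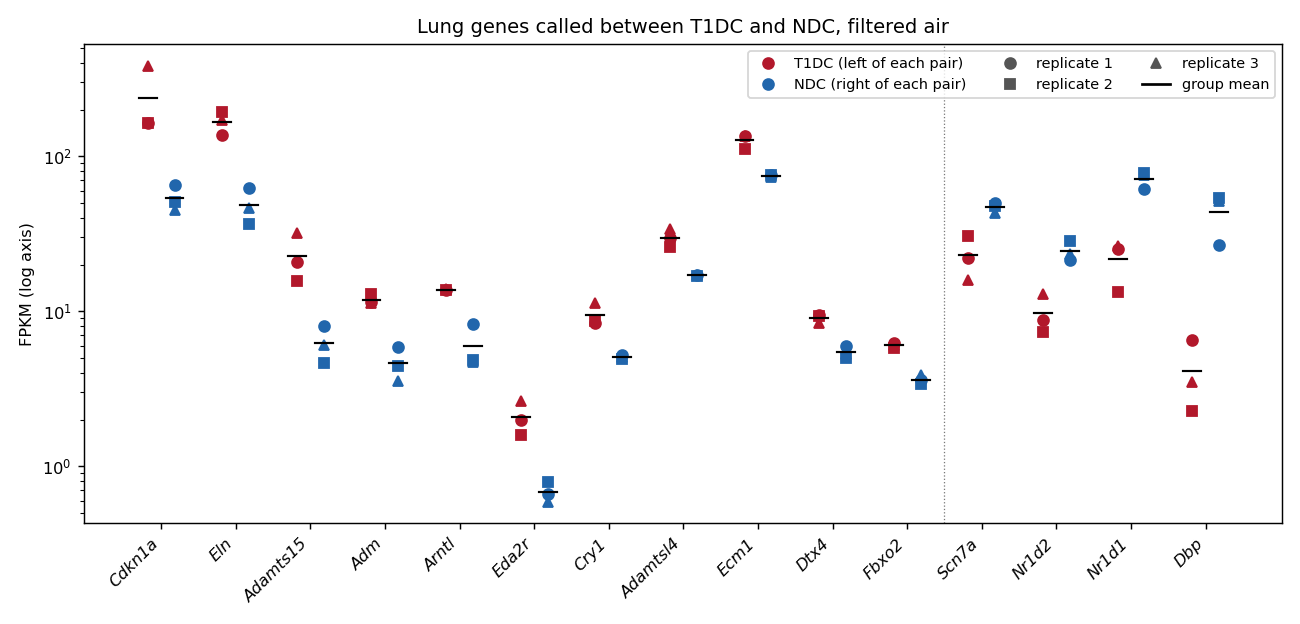
FPKM on a log axis in each library for the 15 genes called between T1DC (red, left of each pair) and NDC (blue, right of each pair), ordered by log2 fold change, with symbols for replicates and black bars for group means of 3. The 3 diabetic libraries lie wholly above or wholly below the 3 ND libraries for each of the 15 genes, as they do for 20.6% of all tested genes. The 15 were picked by their p in these same libraries, so this separation is no further evidence.

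Clock genes changed in both directions. Dbp, a transcription factor of the PAR bZIP family that the clock drives through E-boxes (chromosome 7, 45705100 to 45710203, GRCm38), stood at 6.5, 2.28 and 3.52 FPKM in T1DC, against 26.95, 53.6 and 51.4 FPKM in NDC. The highest diabetic library was far below the lowest ND library. The log2 fold change of FPKM + 1 was -3.16 ± 0.28 (SE, adjusted p = 0.000182, limma), the smallest p of all 13973 genes. Nr1d1 stood at 25.2, 13.3 and 26.5 FPKM in T1DC, against 61.8, 77.5 and 75.3 FPKM in NDC. The groups were well apart, and the log2 fold change was -1.73 ± 0.27 (adjusted p = 0.0200, limma). Its paralogue Nr1d2 stood at 8.82, 7.33 and 12.95 FPKM in T1DC, against 21.4, 28.3 and 23.4 FPKM in NDC. It fell by 1.27 on the log2 scale (SE 0.19, adjusted p = 0.0189, limma), again without overlap.

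The positive arm of the loop moved the other way. Arntl, the gene that Nr1d1 and Nr1d2 repress, stood at 13.65, 13.7 and 13.9 FPKM in T1DC, against 8.23, 4.86 and 4.70 FPKM in NDC. Its diabetic libraries were nearly identical, and all were above the 3 ND libraries, of which NDC1 was the highest. The log2 fold change was 1.13 ± 0.15 (adjusted p = 0.0104, limma). Npas2, the partner of Arntl that can stand in for Clock, stood at 3.84, 5.74 and 3.32 FPKM in T1DC, against 1.53, 0.97 and 0.86 FPKM in NDC. The libraries did not overlap, but the log2 fold change of 1.31 ± 0.24 missed the threshold (adjusted p = 0.0682, limma). Of the repressors, Cry1 rose: 8.44, 8.70 and 11.3 FPKM in T1DC, against 5.25, 4.91 and 5.04 FPKM in NDC, a log2 fold change of 0.78 ± 0.13 (adjusted p = 0.0243, limma). Per3, a member of the Period family, stood at 3.79, 2.33 and 3.23 FPKM in T1DC, against 5.80, 7.17 and 8.18 FPKM in NDC. Its log2 fold change of -0.97 ± 0.19 did not pass (adjusted p = 0.0894, limma), although no library overlapped. The remaining loop genes gave small differences, with log2 fold changes of 0.13 for Per1, -0.37 for Per2, -0.08 for Cry2 and 0.23 for Clock, none of them past the threshold.

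Over the whole core clock list, 4 of 18 tested members were called, 2 higher and 2 lower, against 0.107% of all genes. At an unadjusted p under 0.05 there were 9, against 12.5% of all genes. The list's median was 0.02, with called members on either side of 0. Among clock output genes, Dbp and Dtx4 were the only 2 of 12 called, against the same 0.107% of all genes. Dtx4, an E3 ubiquitin ligase of the Deltex family that acts on Notch, stood at 9.49, 9.38 and 8.39 FPKM in T1DC, against 6.00, 4.99 and 5.27 FPKM in NDC. It rose by a log2 fold change of 0.65 ± 0.10 (adjusted p = 0.0192, limma). The PAR bZIP relatives of Dbp did not pass: Tef stood at 44.4, 36.5 and 56.9 FPKM in T1DC against 43.8, 57.6 and 56.1 FPKM in NDC, with overlap, and Hlf had a log2 fold change of -0.56 (adjusted p = 0.312, limma). Neither the labels nor the methods state at what time of day the lungs were collected.

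Promoter sequence is shown for Cry1 and Nr1d2, the called clock genes whose window holds 1 of the 3 motifs searched. It is also shown for Per3, which was not called but holds a pair of D-boxes. In the 250 bases before the annotated start, an E-box (CACGTG) was found in 2 of the 8 clock genes with a window, Cry1 and Bhlhe41. The D-box (TTATGTAA), the element that Dbp and its relatives bind, was found in Per3, in 2 copies, and the element AGGTCA that REV-ERB and ROR receptors bind was found in Nr1d2. The windows of Dbp, Arntl, Nr1d1 and Npas2 held none of these letters. Both strands were searched, and the motifs do not overlap each other. Of 32851 promoter windows of the same length, 6.02% hold the E-box, 0.819% the D-box and 14% the AGGTCA element. The sequences are from RefSeq (GRCm38.p6), read 5′ to 3′ on the minus strand that carries all 3 genes, with the motif in capitals. The Cry1 window is chr10:85185055-85185304, with its E-box 60 bases before the start. The Nr1d2 window is chr14:18239107-18239356, with AGGTCA 77 bases before the start, and the Per3 window is chr4:151044666-151044915, with its D-boxes 205 and 158 bases before the start.
Cry1: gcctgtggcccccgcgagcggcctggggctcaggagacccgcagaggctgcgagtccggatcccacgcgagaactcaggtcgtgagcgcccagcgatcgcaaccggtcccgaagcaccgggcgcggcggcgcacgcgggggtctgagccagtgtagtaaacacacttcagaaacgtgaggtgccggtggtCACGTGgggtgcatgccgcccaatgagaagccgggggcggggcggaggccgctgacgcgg
Nr1d2: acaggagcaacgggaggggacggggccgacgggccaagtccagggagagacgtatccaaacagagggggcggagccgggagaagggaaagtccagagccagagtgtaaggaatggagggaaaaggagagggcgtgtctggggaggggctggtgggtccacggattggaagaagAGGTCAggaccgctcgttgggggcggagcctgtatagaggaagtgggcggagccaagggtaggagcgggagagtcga
Per3: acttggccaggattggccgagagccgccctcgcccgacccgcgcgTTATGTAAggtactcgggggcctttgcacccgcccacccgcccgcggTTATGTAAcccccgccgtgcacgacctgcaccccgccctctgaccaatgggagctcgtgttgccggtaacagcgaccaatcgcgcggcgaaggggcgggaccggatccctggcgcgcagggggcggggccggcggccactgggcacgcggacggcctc
A match describes the letters in the window and not binding, which was not measured.

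Genes downstream of p53 leaned upward in the diabetic lungs, and a pair of them passed the test. Cdkn1a, which encodes the cell cycle inhibitor p21 (chromosome 17, 29090979 to 29100722), stood at 164, 165 and 384 FPKM in T1DC, against 65.0, 50.8 and 44.97 FPKM in NDC. The lowest diabetic library was well above the highest ND library, and T1DC3 was the highest of all. The means were 238 ± 127 FPKM in T1DC and 53.6 ± 10.3 FPKM in NDC (SD, n = 3 each), and the log2 fold change was 2.02 ± 0.32 (adjusted p = 0.0192, limma). Leaving out T1DC3 reduced it to 1.62, the lowest value over the settings tried. Eda2r, a receptor of the TNF receptor family whose gene p53 induces, stood at 1.99, 1.60 and 2.64 FPKM in T1DC, against 0.66, 0.79 and 0.59 FPKM in NDC. The level is low but the groups were apart, with a log2 fold change of 0.86 ± 0.14 (adjusted p = 0.0229, limma). Gdf15, a secreted stress cytokine, stood at 6.42, 4.38 and 18.2 FPKM in T1DC, against 1.64, 1.73 and 1.70 FPKM in NDC. Its log2 fold change of 1.77 ± 0.34 did not pass (adjusted p = 0.0829, limma), and its 3 diabetic values were widely spread.

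Over the 30 tested p53 targets, 2 were called, against 0.107% of all genes. A higher mean in T1DC was found in 24 and a lower mean in 6, against 40.8% and 59.2% of all genes. At an unadjusted p of 0.05, 14 were higher and 2 lower, against 5.76% and 6.77% of all genes, and the list's median was 0.28. This list and the others were chosen with earlier results of these data known, so such shares describe and do not test. Bax, the pore-forming protein that starts mitochondrial apoptosis, stood at 79.55, 68.3 and 72.8 FPKM in T1DC, against 54.2, 51.9 and 56.4 FPKM in NDC. Its libraries were tight and apart, with a log2 fold change of 0.43 ± 0.09 (adjusted p = 0.124, limma). Psrc1, a spindle protein that p53 regulates, stood at 2.85, 2.60 and 3.13 FPKM in T1DC, against 1.14, 1.29 and 1.59 FPKM in NDC (log2 fold change 0.72, adjusted p = 0.0926, limma). Mdm2, which encodes the ubiquitin ligase that degrades p53, did not differ beyond its spread: 25.4, 26.8 and 26.9 FPKM in T1DC and 26.6, 23.4 and 24.65 FPKM in NDC. Without T1DC3 the counts were 12 higher and 1 lower with a median of 0.27, and with scores for muscle and squamous, brown fat and hepatocyte genes as 3 covariates they were 9 and 1 with a median of 0.26.

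Genes of the elastic fibre and the surrounding matrix made up a further part of the called set. Eln, which encodes tropoelastin (chromosome 5, 134702595 to 134747368), stood at 137, 194 and 171 FPKM in T1DC, against 62.1, 36.4 and 46.2 FPKM in NDC. No diabetic library came near the ND range, and the log2 fold change was 1.79 ± 0.24 (adjusted p = 0.0104, limma). Adamtsl4, a secreted protein that binds fibrillin microfibrils, stood at 29.5, 26.1 and 33.9 FPKM in T1DC, against 17.15, 16.85 and 17.1 FPKM in NDC. Its ND libraries were almost equal, and it rose by a log2 fold change of 0.77 ± 0.12 (adjusted p = 0.0189, limma). Ecm1, a secreted matrix glycoprotein, stood at 135, 111 and 135.5 FPKM in T1DC, against 75.4, 75.6 and 73.9 FPKM in NDC. Its ND libraries were also close to each other. The log2 fold change of Ecm1 was 0.75 ± 0.11 (adjusted p = 0.0189, limma). Adamts15, a metalloprotease that cleaves proteoglycans, stood at 20.8, 15.7 and 32.0 FPKM in T1DC, against 7.98, 4.66 and 6.06 FPKM in NDC. The groups were again apart, and the log2 fold change was 1.69 ± 0.26 (adjusted p = 0.0189, limma).

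Of the 23 tested elastic fibre genes, 2 were called, against 0.107% of all genes, 6 were higher and 1 lower at an unadjusted p of 0.05, against 5.76% and 6.77% of all genes, and the median was 0.14. The median was 0.04 without T1DC2, 0.09 without NDC2, where 4 members were higher at that p, and 0.05 with the 3 tissue scores as covariates, where 5 were higher and 3 lower. Lox, the lysyl oxidase that crosslinks elastin and collagen, stood at 27.1, 27.8 and 113 FPKM in T1DC, against 17.6, 13.1 and 13.3 FPKM in NDC, where T1DC3 carried most of the difference (log2 fold change 1.54 ± 0.42, adjusted p = 0.212, limma). Fbn1, the main fibrillin of the scaffold, overlapped between groups, at 15.2, 17.99 and 18.6 FPKM in T1DC and 15.8, 12.3 and 12.3 FPKM in NDC. The 30 collagens and other matrix genes had a median of -0.09, with Ecm1 the 1 member called and the basement membrane chains Col4a1 and Col4a2 at log2 fold changes of 0.84 and 0.86 that did not pass (adjusted p = 0.221 and 0.238, limma). Among 23 matrix proteases and inhibitors, Adamts15 was the 1 member called. Mmp14, a membrane-bound protease, stood at 28.4, 30.45 and 33.8 FPKM in T1DC, against 21.4, 21.2 and 20.8 FPKM in NDC, apart but not past the threshold (log2 fold change 0.52, adjusted p = 0.130, limma). Adamts1, a relative of Adamts15, was lower at 14.1, 21.5 and 20.8 FPKM in T1DC, against 28.4, 37.2 and 30.1 FPKM in NDC (log2 fold change -0.75, adjusted p = 0.185, limma).

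The other called genes were Adm, Fbxo2 and Scn7a. Adm encodes adrenomedullin, a vasodilator peptide of endothelium and other cells, and stood at 11.4, 12.9 and 11.2 FPKM in T1DC, against 5.87, 4.41 and 3.57 FPKM in NDC. The diabetic libraries were close together and above all ND libraries, with a log2 fold change of 1.21 ± 0.16 (adjusted p = 0.0104, limma). Its receptor Calcrl did not follow, at 174, 216 and 166 FPKM in T1DC and 191, 185 and 185 FPKM in NDC, and its coreceptor Ramp2 had a log2 fold change of 0.39 (adjusted p = 0.495, limma). Fbxo2, an F-box protein that recognises glycoproteins for degradation, stood at 6.24, 5.76 and 6.07 FPKM in T1DC, against 3.60, 3.37 and 3.88 FPKM in NDC. It rose by a log2 fold change of 0.61 ± 0.10 (adjusted p = 0.0315, limma), the smallest change called, and it lost its call without any 1 of the 6 libraries. Scn7a, a sodium channel that senses sodium level, stood at 22.05, 30.7 and 16.0 FPKM in T1DC, against 50.3, 48.1 and 42.8 FPKM in NDC. It fell by 1.05 on the log2 scale (SE 0.18, adjusted p = 0.0381, limma), with no overlap.

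Below the threshold, the 10 genes with the smallest p in each direction whose groups did not overlap had adjusted p of 0.0670 to 0.122 where higher and 0.0894 to 0.185 where lower. On the higher side, Gdpd2, a glycerophosphodiester phosphodiesterase, had a log2 fold change of 1.61, with 18.1, 16.8 and 26.55 FPKM in T1DC and 10.6, 3.61 and 5.13 FPKM in NDC. Akr1c14, a hydroxysteroid dehydrogenase, stood at 121, 91.2 and 162 FPKM in T1DC, against 52.7, 36.04 and 38.3 FPKM in NDC (log2 fold change 1.52, adjusted p = 0.113, limma). On the lower side, Aplnr, the apelin receptor of endothelium, stood at 3.73, 8.89 and 1.73 FPKM in T1DC, against 13.1, 13.6 and 13.3 FPKM in NDC. Its ND libraries were nearly equal while the diabetic ones were spread (log2 fold change -1.51 ± 0.35, adjusted p = 0.156, limma). Scn3b and Plcb1, a sodium channel subunit and a phospholipase C, had log2 fold changes of -0.93 and -0.97.

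Glucocorticoid-responsive genes leaned upward. Of 20 tested, 19 had a higher mean in T1DC, against 40.8% of all genes. At an unadjusted p of 0.05, 12 were higher and 1 lower, against 5.76% and 6.77% of all genes. The median was 0.48, but Cdkn1a, which also stands in the p53 list, was the 1 member called, against 0.107% of all genes. In DIOC against the same NDC libraries the median was 0.36. Ddit4, an inhibitor of the growth kinase mTORC1, stood at 48.3, 31.8 and 94.1 FPKM in T1DC, against 16.7, 21.95 and 19.3 FPKM in NDC (log2 fold change 1.41 ± 0.27, adjusted p = 0.0829, limma). Fkbp5, a chaperone of the glucocorticoid receptor, stood at 22.4, 20.4 and 73.9 FPKM in T1DC, against 11.6, 9.42 and 12.8 FPKM in NDC. Mt2, a metallothionein that binds zinc, stood at 86.7, 66.6 and 332 FPKM in T1DC, against 35.3, 29.1 and 27.85 FPKM in NDC. For these 3 genes every diabetic library was above every ND library and T1DC3 was the highest. The log2 fold changes of Fkbp5 and Mt2, 1.46 and 1.99, did not pass (adjusted p = 0.235 and 0.159, limma). The receptor gene Nr3c1 itself was slightly lower, at 27.5, 29.98 and 24.15 FPKM in T1DC and 32.0, 34.2 and 30.7 FPKM in NDC (log2 fold change -0.24, adjusted p = 0.268, limma). Without T1DC3, 8 members of the list were higher at an unadjusted p of 0.05 and the median was 0.31, and without NDC2 the same number was higher with a median of 0.50.

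Interferon-stimulated genes, which infected or alarmed cells switch on through type I interferon, also leaned upward without a call. Of 28 tested, 24 had a higher mean, against 40.8% of all genes. At an unadjusted p of 0.05, 12 were higher and 1 lower, against 5.76% and 6.77% of all genes. The median was 0.61, the highest of the 30 pathway lists. Ifi44, an antiviral effector, stood at 11.1, 8.80 and 15.96 FPKM in T1DC, against 4.76, 5.67 and 5.16 FPKM in NDC (log2 fold change 1.03 ± 0.20, adjusted p = 0.0829, limma). Ifit3, which helps to bind foreign RNA, stood at 90.7, 53.3 and 187 FPKM in T1DC, against 32.8, 38.3 and 40.3 FPKM in NDC. Both were apart, with T1DC3 highest and T1DC2 lowest of the diabetic libraries. The list's sum followed that order at 862, 547 and 1564 FPKM in T1DC, and it overlapped the 444, 567 and 627 FPKM of NDC. The median was 0.20 with 5 members higher at an unadjusted p of 0.05 when T1DC3 was left out, and 0.95 with 23 members when T1DC2 was left out. With the 3 tissue scores as covariates it was 0.45 with 5 members.

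**Figure D2:**
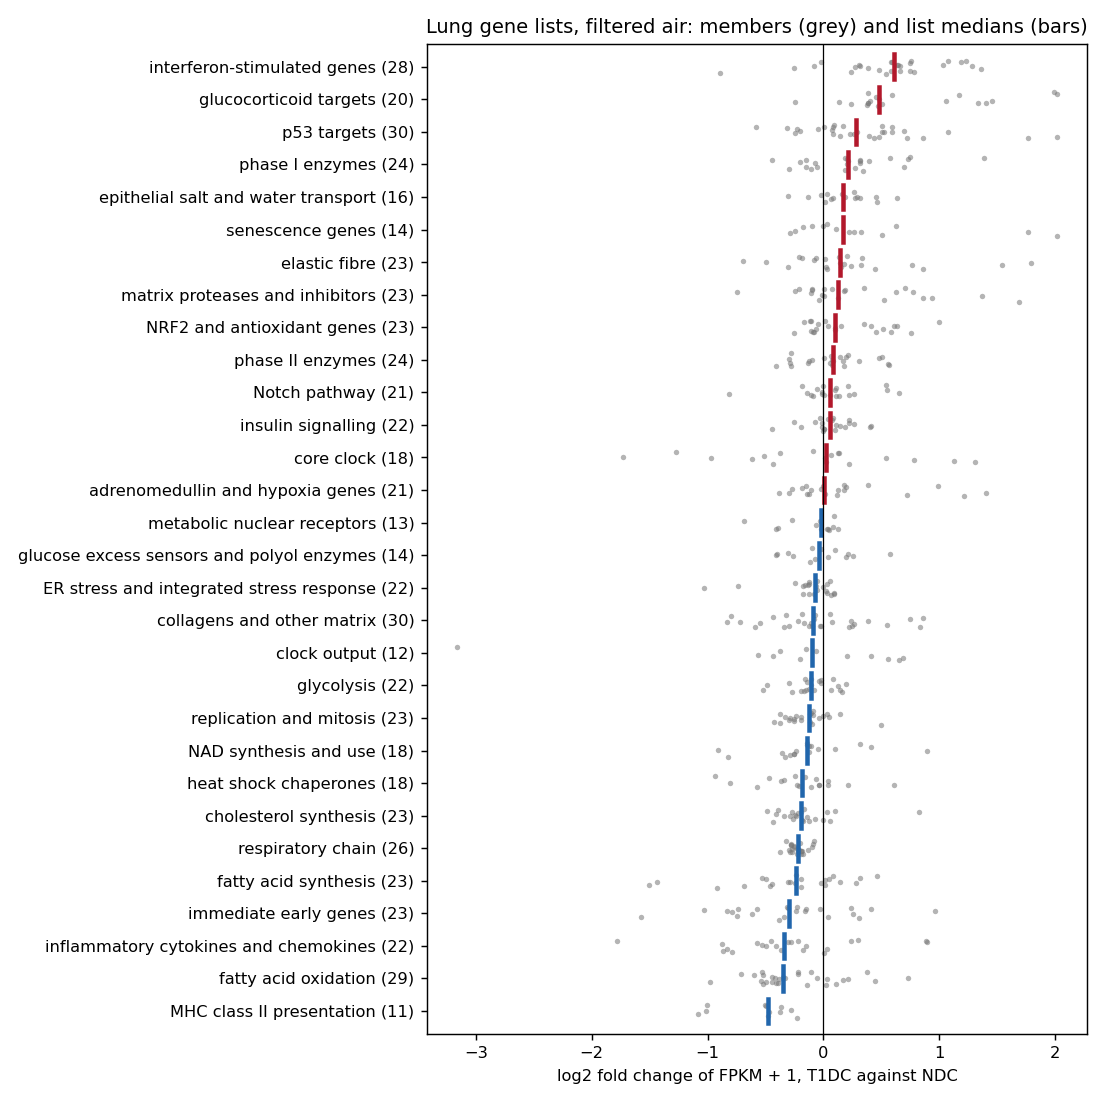
Log2 fold change of FPKM + 1, T1DC against NDC, for every tested member (grey points) of 30 pathway lists, with the list median as a bar and the number tested in brackets. Interferon-stimulated genes (0.61) and glucocorticoid targets (0.48) have the highest medians, most lists lie close to 0, and the clock list has a median of 0.02 with members spread to both sides.

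Markers of lymphocytes had lower means in the diabetic lungs, with the lowest values in T1DC3. In bulk tissue, fewer cells of a type and less RNA per cell cannot be told apart. All 16 T cell markers had a lower mean in T1DC, against 59.2% of all genes. At an unadjusted p of 0.05, 13 were lower, against 6.77% of all genes. None was called, and the median of -1.16 shrank to -0.77, with 0 members under that p, without T1DC3. Cd3d, a chain of the T cell receptor complex, stood at 10.75, 9.13 and 2.30 FPKM in T1DC, against 17.7, 19.7 and 25.9 FPKM in NDC (log2 fold change -1.58, adjusted p = 0.276, limma). T1DC1 and T1DC2 were below every ND library and T1DC3 was far below those. Natural killer and cytotoxic cell markers were lower in 14 of 15, against the same 59.2% of all genes. Of these, 11 were under an unadjusted p of 0.05, against 6.77%, and the median was -0.76. Eomes, a transcription factor of these cells, stood at 1.81, 1.75 and 1.5 FPKM in T1DC, against 3.82, 3.36 and 4.21 FPKM in NDC. Here T1DC3 was close to the other diabetic libraries (log2 fold change -0.83, adjusted p = 0.195, limma). The median was -0.66 without T1DC3, with 3 members under an unadjusted p of 0.05, and -0.58 without NDC3, with 2. With 3 tissue scores (muscle and squamous, brown fat, and hepatocyte) as covariates, 0 T cell markers and 10 natural killer markers were under that p, at medians of -1.21 and -1.27. With the muscle and squamous score alone, the counts were 8 and 5.

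B cell markers behaved differently from T cell markers between libraries. All 11 had a lower mean in T1DC with a median of -1.0, and 9 were under an unadjusted p of 0.05. Of all genes, 59.2% had a lower mean and 6.77% were lower at that p. Ms4a1, the B cell surface protein CD20, stood at 20.9, 18.2 and 3.57 FPKM in T1DC, against 22.8, 42.9 and 25.1 FPKM in NDC. T1DC1 and T1DC2 were close to NDC1, so the difference rests on T1DC3 and NDC2. Without T1DC3, and likewise without NDC2, no B cell marker had an unadjusted p under 0.05, and the median was -0.32 and -0.76. Without NDC3 there were 4, with the 3 tissue scores there were 0 at a median of -0.92, and with the muscle and squamous score alone all 11 were lower at that p at a median of -1.26. The 11 genes of MHC class II presentation, by which B cells, macrophages and dendritic cells show antigen, were all lower in mean, with a median of -0.48, and 3 under an unadjusted p of 0.05. That count was 0 without T1DC3 or NDC2, 1 without NDC3, 9 without NDC1, 0 with the 3 tissue scores and 6 with the muscle and squamous score alone. The chemokine Ccl5, which T and natural killer cells secrete, stood at 154, 155 and 57.5 FPKM in T1DC, against 390, 329 and 444 FPKM in NDC. It did not overlap, but its log2 fold change of -1.78 did not pass (adjusted p = 0.238, limma). Of 22 inflammatory cytokines and chemokines, 16 had a lower mean, 6 were lower and 0 higher at an unadjusted p of 0.05, and the median was -0.34, with 3 members under that p without T1DC3 or without NDC2.

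**Figure D3:**
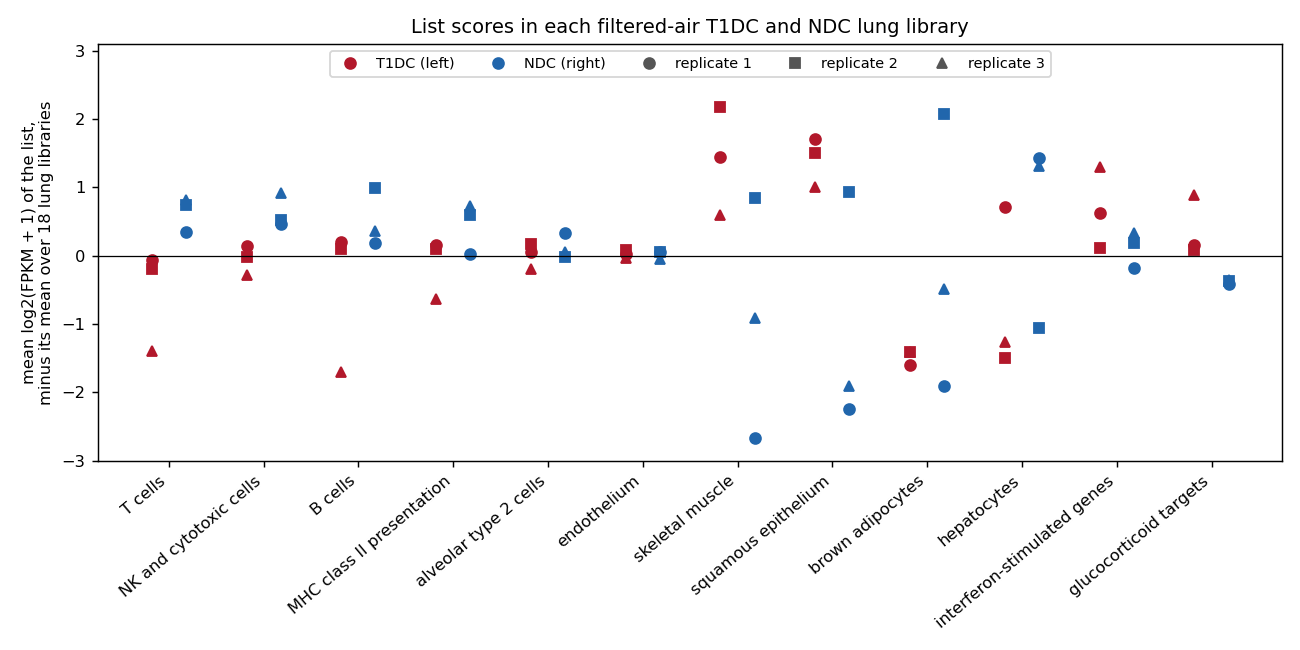
Mean log2(FPKM + 1) of each list in each library, minus its mean over the 18 lung libraries, for T1DC (red, left) and NDC (blue, right), with symbols for replicates. T1DC3 is lowest for T cells (-1.40) and B cells (-1.70) and highest for interferon-stimulated and glucocorticoid genes, and NDC2 stands with the diabetic libraries for skeletal muscle and squamous genes.

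The epithelial cell lists had medians close to 0. The median log2 fold change was -0.08 over 14 alveolar type 2 cell markers, 0.11 over 9 alveolar type 1 markers, 0.03 over 10 club and goblet cell markers and -0.03 over 14 ciliated cell markers. No member of these lists was called, and 1 had an unadjusted p under 0.05. Smooth muscle (-0.02 over 10), fibroblasts (-0.18 over 13), neutrophils (0.13 over 9) and alveolar macrophages (-0.29 over 10) also gave no call. The last pair of lists turned with single libraries. Neutrophil markers summed to 285.8, 528.4 and 771.9 FPKM in T1DC and to 208.5, 223 and 2015 FPKM in NDC, and their median was 1.04, with all 9 higher in mean, without NDC3 and -0.47 without NDC1. The macrophage median was -0.76 without T1DC1 and 0.07 without T1DC3. The endothelial list had a median of 0.04, with members on both sides. Vwf, the von Willebrand factor of endothelial cells, stood at 158, 112 and 183 FPKM in T1DC, against 75.9, 89.0 and 85.7 FPKM in NDC (log2 fold change 0.82, adjusted p = 0.268, limma). Emcn, a sialomucin of capillaries and veins, was lower at 23.2, 30.4 and 23.0 FPKM in T1DC, against 40.85, 40.4 and 39.0 FPKM in NDC (log2 fold change -0.64, adjusted p = 0.193, limma). Both were apart between groups in opposite directions.

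Genes of glucose handling and insulin signalling gave no call in the lung. The 22 insulin signalling genes had a median of 0.06 and the 14 genes of glucose excess sensing and the polyol pathway had a median of -0.04, with no call. Sord, the sorbitol dehydrogenase of the polyol pathway, stood at 27.95, 26.1 and 23.9 FPKM in T1DC, against 32.8, 36.3 and 34.9 FPKM in NDC. It had the smallest p of these lists and a small size, a log2 fold change of -0.40 ± 0.08 (adjusted p = 0.0970, limma). All 26 respiratory chain genes had a lower mean, with a median of -0.22 and none under an unadjusted p of 0.05. Without NDC2, the library with brown fat genes, 17 were lower and 9 higher with a median of -0.02. With the muscle and squamous score as a covariate all 26 were lower at that p, with a median of -0.69, where 2164 of all 13973 genes were, and with the 3 tissue scores 0 were, with a median of -0.04. Fatty acid oxidation (median -0.35 over 29), fatty acid synthesis (-0.24 over 23) and cholesterol synthesis (-0.19 over 23) had medians below 0 without a call. Fatty acid oxidation stood at a median of 0.02 without NDC2, with 15 genes higher and 14 lower in mean, and at -0.97 with the muscle and squamous covariate, with 18 lower at an unadjusted p of 0.05. Fatty acid synthesis stood at -0.09 without NDC2 and at -0.37 with that covariate, where 12 were lower at that p. The 22 glycolysis genes had a median of -0.11, which was -0.01 without NDC2 and -0.38 with the covariate, where 14 were lower at that p. Insig1, a sterol-regulated brake on cholesterol synthesis, stood at 34.1, 41.8 and 27.1 FPKM in T1DC, against 46.8, 50.4 and 46.65 FPKM in NDC (log2 fold change -0.49, adjusted p = 0.196, limma).

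Genes that handle foreign chemicals gave no call. Of 24 phase I enzymes, 16 had a higher mean, 6 were higher and 0 lower at an unadjusted p of 0.05, and the median was 0.21. Of all genes, 40.8% had a higher mean, and 5.76% were higher and 6.77% lower at that p. Cyp2b10, a cytochrome P450 induced by the receptor CAR, stood at 200.2, 173 and 234 FPKM in T1DC, against 128, 116 and 127 FPKM in NDC (log2 fold change 0.69, adjusted p = 0.185, limma). Aldh3a1, an aldehyde dehydrogenase of surface epithelia, stood at 56.2, 68.9 and 76.05 FPKM in T1DC, against 23.2, 30.5 and 21.4 FPKM in NDC. Neither overlapped, and neither passed (Aldh3a1 log2 fold change 1.39, adjusted p = 0.258, limma). Without NDC3 the list had 4 members higher at that p, and with the 3 tissue scores 3. The 24 phase II enzymes had a median of 0.08, with 2 higher and 1 lower at that p, and the 13 metabolic nuclear receptors had a median of -0.02, with 0 under it. The list of the transcription factor NRF2 and antioxidant genes holds 23 tested members, among them the gene of NRF2 itself. Its median was 0.10, with 8 members higher at an unadjusted p of 0.05. That count was 3 without T1DC3 or NDC3 and 5 without NDC2, and the median was -0.02 without T1DC3 or without NDC1. Nqo1, a quinone reductase of that list, stood at 17.3, 12.9 and 29.96 FPKM in T1DC, against 14.3, 8.19 and 6.02 FPKM in NDC, with overlap. Epithelial salt and water transport genes were higher in mean in 13 of 16, with Atp1b1, a sodium pump subunit, at 194, 211 and 290 FPKM in T1DC against 159, 134 and 146 FPKM in NDC (log2 fold change 0.64, adjusted p = 0.242, limma).

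The same contrast of states was available in lungs that breathed particulate matter, in 6 libraries that the filtered-air comparison does not use, though both share the estimate of spread. There 40 of 13973 genes (0.286%) were called. Of the 15 genes called in filtered air, 14 had the same direction under particulate matter and 7 were called there too: Dbp, Arntl, Ecm1, Nr1d2, Nr1d1, Eda2r and Cry1. These are 7 of 15 and 7 of 40. The share of all genes with the same direction in both airs was not counted. Dbp stood at 1.80, 2.48 and 3.23 FPKM in T1DE, against 14.9, 18.8 and 12.95 FPKM in NDE (log2 fold change -2.24, adjusted p = 0.00235, limma). Eda2r stood at 4.39, 4.50 and 3.98 FPKM in T1DE, against 0.66, 0.91 and 0.48 FPKM in NDE, a log2 fold change of 1.66 (adjusted p = 9.05e-05, limma). The difference of the 2 effects for Eda2r, 0.80, did not pass (adjusted p = 0.275, limma). Gdf15, not called in filtered air, rose under particulate matter by a log2 fold change of 2.04 (adjusted p = 0.0159, limma). The p53 list had a median of 0.38 there, against 0.28 in filtered air. Glucocorticoid targets had a median of 0.12 under particulate matter, with 11 higher and 9 lower in mean, against 0.48 in filtered air. Interferon-stimulated genes had a median of 0.16 under particulate matter, against 0.61 in filtered air. Without T1DC3 the filtered-air medians were 0.31 and 0.20 for these 2 lists. In the fitted difference between the airs, no member of either list passed the adjusted test in limma. At an unadjusted p under 0.05, 4 of 20 glucocorticoid targets and 1 of 28 interferon-stimulated genes were below 0, and 0 were above it. Of all 13973 genes, 846 had such a p in either direction.

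Some filtered-air differences were small or opposite under particulate matter. Adamts15 stood at 8.94, 8.22 and 13.2 FPKM in T1DE, against 10.3, 14.3 and 9.36 FPKM in NDE, a log2 fold change of -0.16. The difference between its effects under particulate matter and in filtered air was -1.84 ± 0.36 (unadjusted p = 0.000154, adjusted p = 0.108, limma), so it was not shown across all genes. Ddit4 stood at 30.3, 27.8 and 28.0 FPKM in T1DE, against 43.3, 49.1 and 35.1 FPKM in NDE, and its difference of effects was -1.95 (adjusted p = 0.108, limma). Eln stood at 99.4, 109 and 110 FPKM in T1DE, against 55.6, 50.4 and 94.9 FPKM in NDE, with a log2 fold change of 0.71 (adjusted p = 0.221, limma). Its difference of effects, -1.08, had an adjusted p of 0.525 in limma. One gene of 13973 (0.00716%), Ccdc71, passed the test of the difference, and 3.75% were above 0 in it at an unadjusted p of 0.05.

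**Figure D4:**
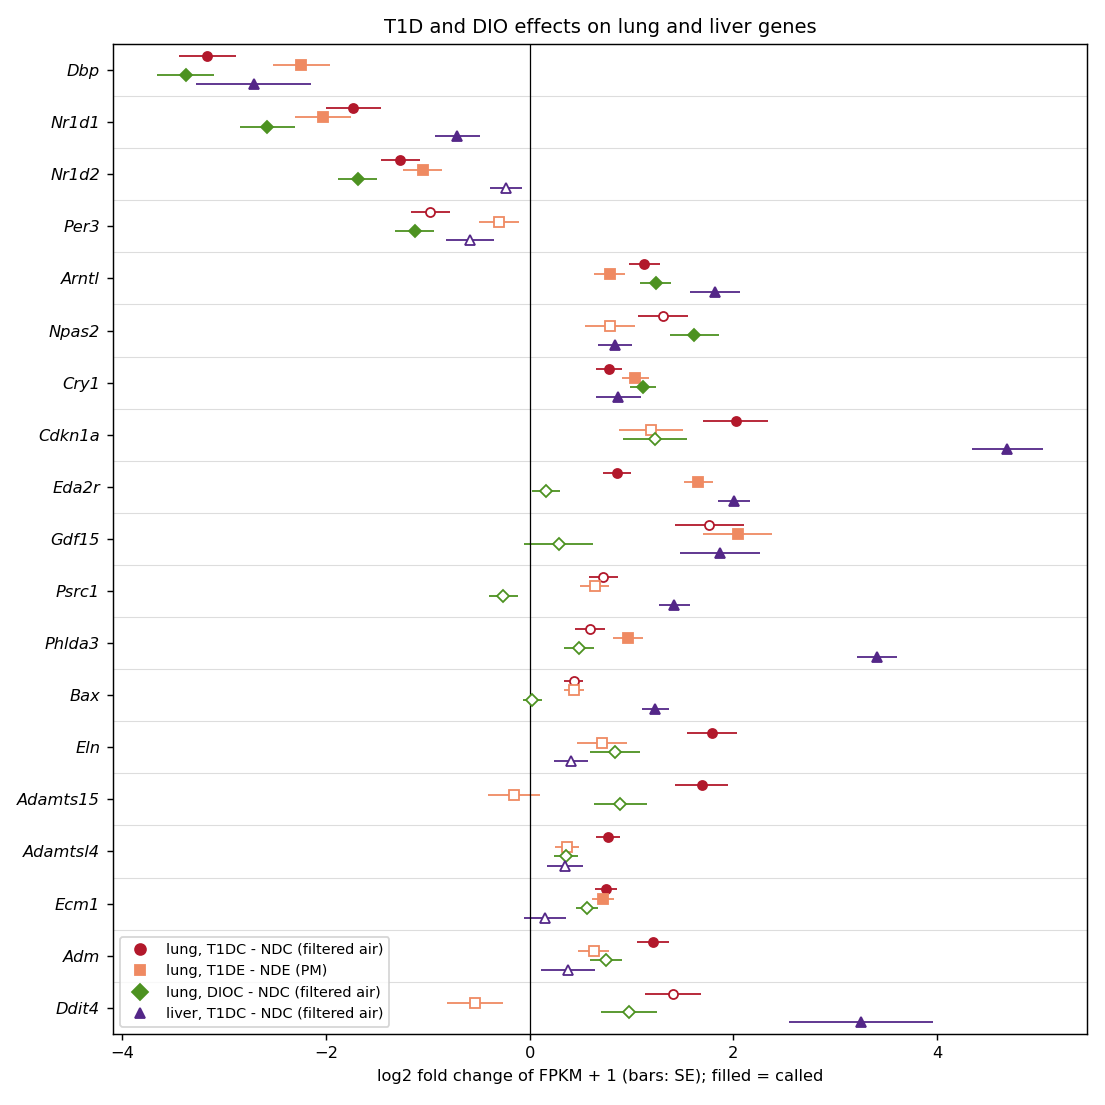
Log2 fold change of FPKM + 1 with its SE for 19 genes in 4 contrasts: lung T1DC against NDC, lung T1DE against NDE, lung DIOC against NDC and liver T1DC against NDC, with filled symbols where called. Dbp lies between -3.38 and -2.24 in all 4, Cdkn1a reaches 4.69 in liver, and Eda2r is at 0.16 in obese lungs. The DIOC and T1DC contrasts share their NDC libraries.

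Lungs of obese mice in filtered air share the NDC libraries with this comparison, so the values are only set side by side. Dbp had a log2 fold change of -3.16 in T1DC and -3.38 in DIOC, Nr1d1 -1.73 and -2.57, Arntl 1.13 and 1.24, and Cry1 0.78 and 1.11. For p53 targets the values were 0.86 and 0.16 for Eda2r, 0.43 and 0.03 for Bax, and 2.02 and 1.23 for Cdkn1a. All 15 called genes had the same direction in DIOC, and 5 were called there: Dbp, Arntl, Nr1d2, Nr1d1 and Cry1. The 15 were picked against these same NDC libraries, so the shared directions and calls are no further evidence. The matching shares over all genes were not counted. The values were 1.79 and 0.84 for Eln, 0.75 and 0.56 for Ecm1, 1.69 and 0.89 for Adamts15, and 0.77 and 0.36 for Adamtsl4. They were 1.21 and 0.75 for Adm, 0.65 and 0.56 for Dtx4, and 0.61 and 0.54 for Fbxo2. The direct comparison of T1DC with DIOC called 4 of 13973 genes (0.0286%), none of them among the 15. Ifi44 was one of these 4, higher in T1DC by a log2 fold change of 1.47 (adjusted p = 0.0212, limma), and Psrc1 was another, higher by 0.98 (adjusted p = 0.0313, limma). For Eda2r the log2 fold change of T1DC over DIOC was 0.70 ± 0.14 (adjusted p = 0.115, limma), and for Eln it was 0.95 ± 0.24 (adjusted p = 0.271, limma). List medians against NDC, T1DC then DIOC, were -0.76 and -0.96 for natural killer markers and -0.48 and -0.56 for MHC class II. They were -1.16 and -0.73 for T cells, -1.0 and -0.28 for B cells, and 0.61 and -0.58 for interferon-stimulated genes. In T1DC over DIOC, the medians were 0.25 for natural killer, 0.18 for MHC class II, -0.49 for T cell and -0.77 for B cell genes.

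In the liver of the same groups, 563 of 10806 tested genes (5.21%) were called, 474 higher and 89 lower in T1DC, with a median of 0.16 over all genes. That balance depends on scaling: median-ratio scaling gave 217 higher and 154 lower. Of the 15 lung genes, 12 were tested in liver, all 12 had the same direction, and 7 were called. The share of all genes with the same direction in both tissues was not counted. Cdkn1a stood at 65.7, 82.3 and 182 FPKM in T1DC liver, against 2.08, 6.54 and 1.53 FPKM in NDC liver, a log2 fold change of 4.69 ± 0.35 (adjusted p = 1.30e-06, limma). Every diabetic liver was far above every ND liver. Of the 30 p53 targets, 18 were called higher in liver, where 4.39% of all genes were, with a median of 1.01, against 2 called and a median of 0.28 in lung. Mdm2 rose there by a log2 fold change of 1.21 (adjusted p = 0.000191, limma), whereas it was 0.08 in lung. Dbp fell by 2.71 and Arntl rose by 1.82 on the log2 scale in liver (adjusted p = 0.00809 and 0.000447, limma), while Nr1d2, called in lung, had a liver log2 fold change of -0.23 that did not pass (adjusted p = 0.326, limma). Whether lung and liver differ in these effects was not tested.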

How the data were processed

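Whole-tissue RNA of 36 samples was sequenced after poly(A) selection, and groups follow the sample labels. Per the authors' methods, reads were filtered by SOAPnuke, mapped to GRCm38 by Bowtie2 and summarised by RSEM, and the unit of the deposited values is FPKM for each gene. No scaling between libraries is stated. The strandedness, the annotation release and tool versions are not given in the sources used. The authors' test was DEGseq.

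Values were taken as log2(FPKM + 1), and a fold therefore understates the change of low genes. In R 4.3.3, 6 group means were fitted with limma 3.58.1 and a moderated variance trend over the 18 lung libraries, or the 18 liver libraries, with Benjamini-Hochberg adjustment over each comparison (two-sided, adjusted p under 0.05, fold over 1.5). Read counts were not used here. Depth was roughly estimated from the spacing of low FPKM values as 18.1 to 18.5 units of 1e6 reads in T1DC and 17.75 to 18.5 in NDC, a figure that rests on an assumed transcript shortening. Steps were tested on simulated data.

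The members and the 55 gene lists (30 pathways and 25 marker sets) were chosen with earlier results of these data known. Lists were described by counts and medians, without a test. Named genes were those called, the 10 non-overlapping genes per direction with the smallest p among the rest (mean of 5 FPKM or more in the higher group), up to 4 members per list with the smallest p, and marked key members. Npas2, Bax, Phlda3, Per1, Per2, Cry2 and Bhlhe41 fall outside that rule and were chosen after their values were seen. Promoter windows are from RefSeq GRCm38.p6. Alternatives covered pseudocount, filter, scaling, thresholds, samples in the fit, replicate block, tissue covariates and leaving out libraries. Figures used matplotlib 3.10.9 under Python 3.11.15.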

Additional observations from a re-analysis of the deposited data

Results flagged for a closer look

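Ccdc71 was the 1 gene of 13973 for which the effect of diabetes differed between the airs in a test of the difference itself. It stood at 16.6, 16.2 and 16.1 FPKM in T1DC against 14.2, 14.1 and 13.5 FPKM in NDC, and at 12.2, 10.7 and 11.0 FPKM in T1DE against 16.1, 15.9 and 16.5 FPKM in NDE. The effect under particulate matter minus that in filtered air was -0.70 on the log2 scale (adjusted p = 0.0272, limma), with a log2 fold change of 0.21 in filtered air (adjusted p = 0.249, limma) and -0.48 under particulate matter (adjusted p = 0.00459, limma, with a fold below 1.5). The 3 diabetic libraries were all above the ND libraries in filtered air and all below them under particulate matter. Ccdc71 was picked by its p for the difference in these same libraries, so this separation is no further evidence. The count of genes passing this test in limma was 0 under each of the 3 scaling alternatives, with 805, 759 and 805 genes under an unadjusted p of 0.05.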

How the results depend on the processing

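Of the 15 genes called between T1DC and NDC, none changed direction under any alternative. The count was 16 with a pseudocount of 0.1, 14 with no filter, 13 with a filter at 5 FPKM and 12 under each scaling. It was 538 with an unadjusted p, 0 when only the 6 compared libraries were fitted (where the spread rests on fewer samples), 386 with a muscle and squamous covariate, 0 with 3 tissue covariates, and 23 without DIOE1 and T1DE3, the libraries with fewest genes at 0 (chosen after seeing the data). At an unadjusted p under 0.05, 1710 and 973 genes differed in the limma fits with 0 calls. Leaving out 1 library gave 1 to 26. The 13 list members called became 127, 0, 103 and 0 under the unadjusted p, the compared groups alone, the covariate and the 3 covariates, and 1 to 18 with 1 library left out. Replicate numbers did not pair the libraries: deviations of same-numbered T1DC and NDC libraries correlated at -0.13, 0.11 and -0.06, and with the replicate block 10 genes were called.

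T1DE against NDE (40) gave 77 with no fold threshold, 289 with an unadjusted p, 4 with the compared groups alone, 24 with 3 covariates and 14 to 45 with 1 library left out. The difference between airs (1) gave 212 with an unadjusted p, 3 with the filter at 5 FPKM, 0 under median-ratio scaling, with or without the 50 highest genes, and under quantile scaling, 0 with the compared groups alone, 7 with the replicate block, 2 with the muscle and squamous covariate, 0 with 3 covariates and 0 to 5 with 1 library left out. T1DC against DIOC (4) gave 315 with an unadjusted p, 2 with the pseudocount of 0.1, 2 with the filter at 5 FPKM, 7 under median-ratio scaling with or without the 50 highest genes, 0 with the compared groups alone, 1 with the replicate block, 127 with the muscle and squamous covariate, 0 with 3 covariates and 0 to 28 with 1 library left out. Liver (563) gave 1460 with no fold threshold, 371 under median-ratio scaling (217 higher and 154 lower), 355 under quantile scaling (219 and 136), 80 with the compared groups alone and 283 to 1071 with 1 library left out. Beyond what is stated, the cause was not tested. The calls rest on 3 libraries per group.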

Other observations

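Red cell and heat shock genes showed values not described above. All 9 tested red cell genes had a higher mean in T1DC, with a median of 0.56, but libraries overlapped: Hba-a1, a haemoglobin alpha chain, stood at 7399, 8548 and 15283 FPKM in T1DC and 17111, 5092 and 4210 FPKM in NDC. Of 18 heat shock chaperones, 14 had a lower mean in T1DC, with a median of -0.18, whereas the median of the diabetic effect under particulate matter was 0.51. Hspb1, a small heat shock protein, stood at 153, 165 and 248 FPKM in T1DC against 134, 117 and 112 FPKM in NDC (log2 fold change 0.61, adjusted p = 0.245, limma), and Dnajb1, a co-chaperone of HSP70, at 16.7, 18.1 and 19.1 FPKM in T1DC against 23.6, 35.0 and 24.4 FPKM in NDC (log2 fold change -0.58, adjusted p = 0.276, limma). In the fitted difference between the airs, 17 of the 18 genes were above 0 with a median of 0.58, against 0.04 over all genes, and 12 were above 0 at an unadjusted p under 0.05, against 3.75% of all genes, but none passed the adjusted test in limma.

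Lyve1, a receptor of lymphatic vessels and of some macrophages, had a log2 fold change of 1.32 and the tissue plasminogen activator Plat 1.37, neither of which passed. For Plat the values were 41.8, 31.1 and 143 FPKM in T1DC against 24.8, 20.3 and 19.7 FPKM in NDC (adjusted p = 0.242, limma), where T1DC3 again stood highest.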
